A study of Mus musculus with 9 samples.

Results

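Interleukins and tumour necrosis factor (TNF) superfamily ligands are messengers by which thymic epithelial cells, lymphocytes and myeloid cells signal to one another. Their transcripts were followed in sorted thymic epithelial cells of mice that differed in Foxn1, which encodes the forkhead transcription factor of the thymic epithelial lineage. The genes were chosen by symbol, namely Il or Tnfsf followed by a number and at most 1 letter, together with Tnf, Lta and Ltb, and without Il7, Il15 and Il25. The rule found 48 of the 38720 genes in the count table. Among them 44 encode ligands or ligand subunits, and the other 4, Il7r, Il9r, Il21r and Il23r, encode receptors whose symbols match the same pattern. All 48 had reads in at least 1 of the 20 libraries.

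Cortical cells (cTEC) were taken as CD45-negative, EpCAM-positive and MHC class II-positive cells that carry Ly51 and do not bind the lectin UEA1, and medullary cells (mTEC) by the opposite staining for Ly51 and UEA1. In a transgenic set, a bacterial artificial chromosome with FLAG-tagged Foxn1 was present in a homozygous (wt*/wt*::nu/nu) or heterozygous (wt*/-::nu/nu) state in nude mice, whose own Foxn1 is not functional, so that all 4 transgenic groups lack functional endogenous Foxn1. The set holds 3 homozygous and 3 heterozygous cTEC libraries and 2 homozygous and 2 heterozygous mTEC libraries. In a deletion set, cTEC came from doxycycline-treated iFoxn1(del7,8) mice, in which beta5t-rtTA, homozygous in both groups, drives tetO-Cre in cells that use the beta5t promoter, and Cre removes exons 7 and 8 of both floxed Foxn1 alleles. The 5 Foxn1-deleted libraries carried 1 tetO-Cre allele and the 5 control libraries carried none, all taken at 72 h. Psmb11, which encodes beta5t, had means of 0.920 and 0.319 CPM in control and deleted libraries, against 997 CPM (CPM, counts scaled to the same library total) in homozygous transgenic cTEC. The sources used here give no ages. The labels do not say whether the libraries of a group came from separate mice, so p-values measure the spread between libraries.

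Interleukins act through receptor pairs or trimers on nearby cells, and several are built from shared subunits, such as the p40 chain that IL-12 and IL-23 have in common. TNF superfamily ligands form trimers that engage receptors of the TNF receptor superfamily. In the thymic medulla, lymphotoxin, RANK ligand and CD40 ligand from lymphocytes drive the growth and maturation of mTEC. Mature mTEC also transcribe many genes that are otherwise restricted to other tissues, partly under the control of Aire, so that cytokine transcripts in mTEC need not mean secretion.

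Library totals ran from 20719630 to 22372633 counts, and levels, given as CPM, are compared only within a gene. Foxn1 itself was at 1299 to 1484 CPM in homozygous and 1144 to 1210 CPM in heterozygous cTEC, where it was lower (log2 fold change -0.36 ± 0.06 SE, adjusted p = 0.000445). In mTEC the order was the opposite, with 307 to 329 CPM in the homozygous and 488 to 502 CPM in the heterozygous libraries (0.66 ± 0.08, adjusted p = 1.68e-05). The mTEC libraries labelled heterozygous thus held more Foxn1 RNA than those labelled homozygous, which applies to every mTEC dose difference below, and the table cannot separate transgene from nude transcripts. Between Foxn1-deleted and control cTEC the Foxn1 count did not pass the test (-0.09 ± 0.16, adjusted p = 0.783), and a count over the whole gene is no check of the loss of 2 exons. Of 8 cTEC marker genes 6 were lower in the deleted libraries. Aire, the medullary regulator, was at 1029 to 1188 CPM in homozygous and 999 to 1019 CPM in heterozygous mTEC and at 16.3 CPM or less in every cTEC library.

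For a few genes on which the results turn, the 250 bases before and 50 after the annotated start are shown, from RefSeq (GRCm38.p6). Ltb, Tnf and Lta are neighbours on chromosome 17, with gaps of 3.06 kb and 1.16 kb, and are shown because Tnf and Lta were called lower in heterozygous mTEC and Ltb was not. Of the 48, Il33 had the largest called dose difference in cTEC, and Il13 the T cell cytokine with the most reads in mTEC. Capitals mark a kappaB-like sequence in Ltb (GGGA or GGGG, any base, then TTTCC, on either strand) and the TATA box sequence TATAAA, on either strand, in the other 4, where Il13 holds 2 overlapping matches.
Ltb promoter, chr17:35194257-35194556, plus strand: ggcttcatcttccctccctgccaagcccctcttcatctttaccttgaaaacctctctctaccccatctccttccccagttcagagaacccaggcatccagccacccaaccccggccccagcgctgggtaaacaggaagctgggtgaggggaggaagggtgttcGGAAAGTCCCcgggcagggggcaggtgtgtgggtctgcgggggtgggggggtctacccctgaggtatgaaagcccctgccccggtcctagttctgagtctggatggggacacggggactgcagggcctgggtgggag
Tnf promoter, chr17:35201958-35202257, minus strand: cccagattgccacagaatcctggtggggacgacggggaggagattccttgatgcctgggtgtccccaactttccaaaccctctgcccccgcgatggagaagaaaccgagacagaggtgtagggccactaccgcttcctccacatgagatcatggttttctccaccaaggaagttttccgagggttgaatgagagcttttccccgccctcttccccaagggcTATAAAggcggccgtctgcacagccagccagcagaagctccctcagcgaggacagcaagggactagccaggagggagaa
Lta promoter, chr17:35205302-35205601, minus strand: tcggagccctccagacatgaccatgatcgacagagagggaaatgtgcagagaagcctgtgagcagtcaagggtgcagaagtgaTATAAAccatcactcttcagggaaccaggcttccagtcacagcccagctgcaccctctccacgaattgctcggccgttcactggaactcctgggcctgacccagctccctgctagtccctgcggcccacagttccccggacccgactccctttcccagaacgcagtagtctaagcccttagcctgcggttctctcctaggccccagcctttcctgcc
Il33 promoter, chr19:29945540-29945839, plus strand: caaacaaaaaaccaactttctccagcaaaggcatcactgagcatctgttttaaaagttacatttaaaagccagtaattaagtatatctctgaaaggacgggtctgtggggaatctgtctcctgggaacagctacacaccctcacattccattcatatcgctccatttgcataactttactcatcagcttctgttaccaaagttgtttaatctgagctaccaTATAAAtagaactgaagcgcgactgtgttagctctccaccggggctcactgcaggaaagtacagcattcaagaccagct
Il13 promoter, chr11:53634653-53634952, minus strand: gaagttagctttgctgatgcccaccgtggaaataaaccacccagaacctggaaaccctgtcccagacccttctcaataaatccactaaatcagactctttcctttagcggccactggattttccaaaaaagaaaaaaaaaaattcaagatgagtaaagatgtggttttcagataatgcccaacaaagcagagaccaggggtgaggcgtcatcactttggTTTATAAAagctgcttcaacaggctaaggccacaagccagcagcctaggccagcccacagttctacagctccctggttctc
The kappaB-like match in Ltb began 87 bases before the start and the TATAAA of Tnf and of the downstream Il33 start 29 bases before it. The TATAAA of Lta lay much farther from its start than that of Tnf. Of the 48 genes 39 had a promoter in the RefSeq table, 46 promoters in all. Il10, Il34, Il17b, Tnfsf12, Il23a, Il27, Tnfsf4, Il24 and Tnfsf9 had none. TATAAA was present in 15 of the 46 (32.6%) and in 13.6% of all 32851 promoters in the table. A kappaB-like match was found in 3 (6.52%), those of Ltb, Il6 and Il16, against 0.807% of all promoters. GACGC, the core of the published FOXN1 motif, was found in 5 (10.9%), which belong to the 4 genes Il11, Il12a, Il13 and Il17d, against 27.2% of all. The 46 promoters held a median of 5 CG dinucleotides, against 7 over all promoters. A match describes these letters and is not a binding site.

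Homozygous mTEC held the broadest set of these transcripts. All 48 genes had counts in both homozygous mTEC libraries, and 42 had a mean of at least 1 CPM there. The corresponding number was 24 in heterozygous mTEC, 10 in homozygous cTEC, 6 in heterozygous cTEC, 12 in the control and 13 in the deleted libraries. Summed over the 48 genes, the level was 561 to 589 CPM in homozygous and 279 CPM in both heterozygous mTEC libraries. In cTEC the sum was 36.4 to 39.3 CPM in homozygous and 60.3 to 89.3 CPM in heterozygous libraries, and 26.0 to 31.9 CPM in the latter without Il33. Control and Foxn1-deleted cTEC summed to 82.7 to 133 and 99.1 to 149 CPM. The highest group mean was in homozygous mTEC for 41 genes. The others peaked in heterozygous mTEC (Il11, Il16 and Ltb), heterozygous cTEC (Il17d and Il33), control cTEC (Il34) and Foxn1-deleted cTEC (Tnfsf12). Il20, an IL-10 family member, had 4 counts in homozygous mTEC and none elsewhere.

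**Figure D1:**
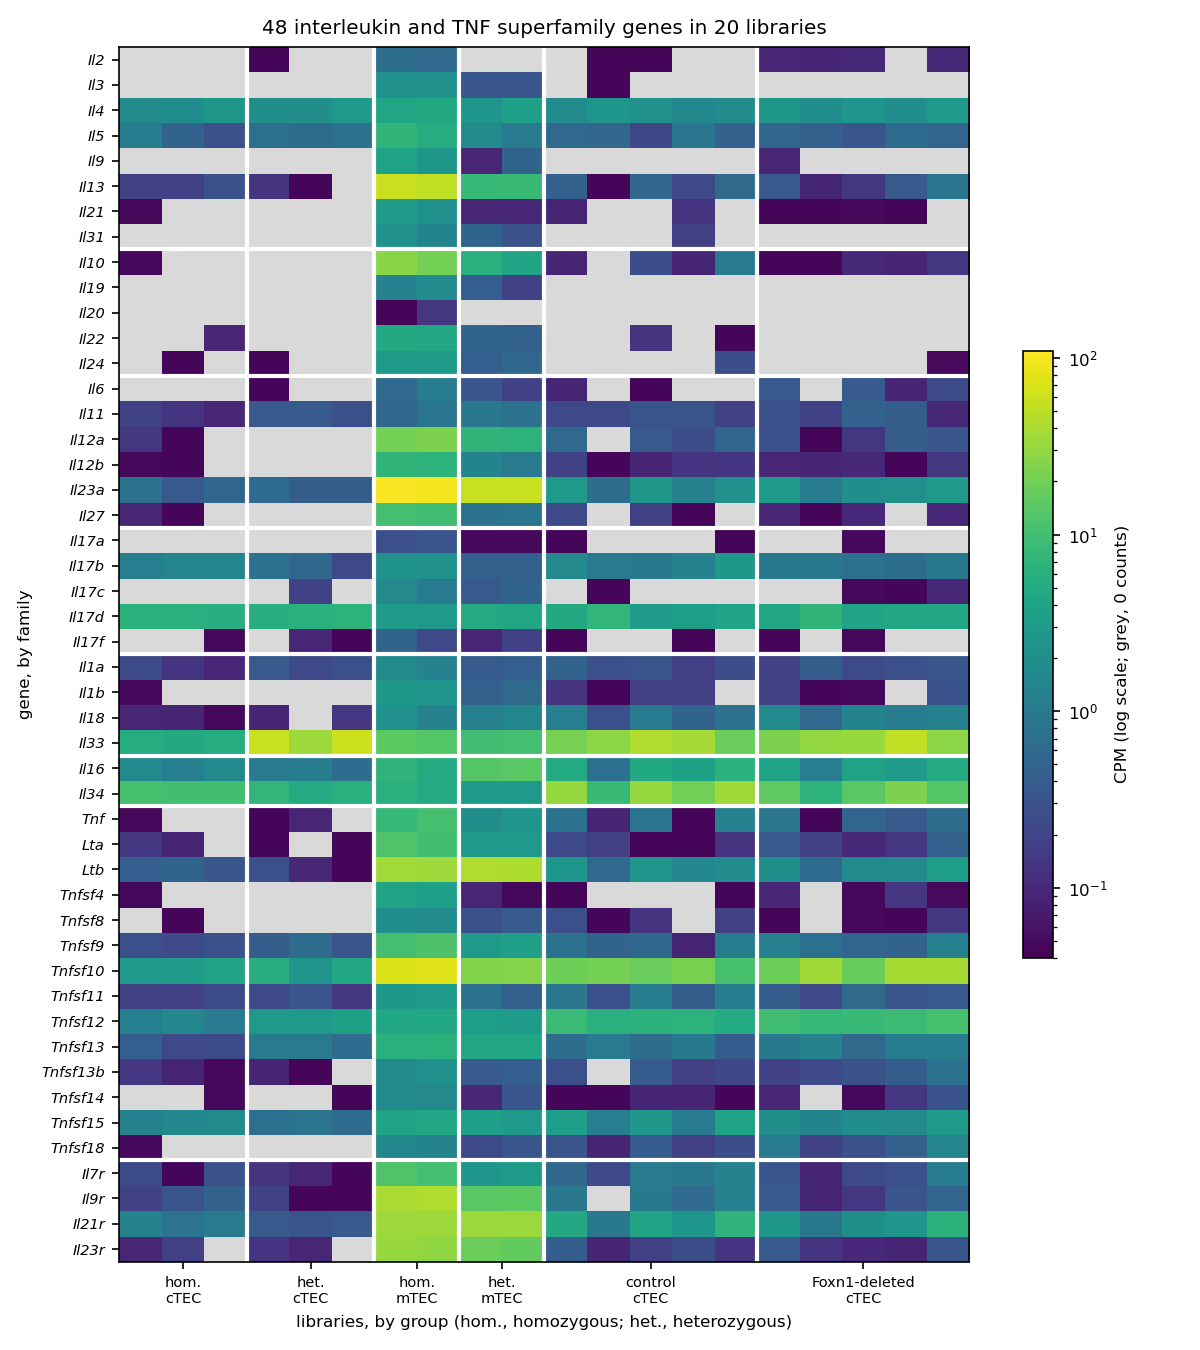
CPM of the 48 genes (rows, grouped by family) in each of the 20 libraries (columns, grouped by genotype and subset) on a log colour scale, with grey for 0 counts. The 2 homozygous mTEC columns have no grey cell, whereas 16 genes have no count in any heterozygous cTEC library.

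Several marker lists of other cells differed between the mTEC doses, and others did not. A list of 15 macrophage and dendritic cell markers summed to 611 to 715 CPM in homozygous and 144 to 147 CPM in heterozygous mTEC, and to 20.9 to 23.5 and 14.3 to 18.7 CPM in the matching cTEC. Of the 14 tested, 12 were called lower in heterozygous mTEC. All 15 had counts in every transgenic group. Mast cell and granulocyte markers (9 genes) summed to 201 to 208 CPM in homozygous and 37.8 to 41.7 CPM in heterozygous mTEC, where Elane was at 0, and to at most 0.561 CPM in transgenic cTEC, where Mcpt4, Fcer1a, Ms4a2 and Elane were at 0. Tuft-like cell markers (9 genes) went from 1160 to 1299 CPM to 401 to 487 CPM between the mTEC doses, B cell markers (6 genes) from 42.3 to 51.3 CPM to 19.1 to 23.0 CPM, and thymocyte markers (18 genes) from 129 to 154 CPM to 87.5 to 87.8 CPM. Ptprc, which encodes the CD45 used to exclude blood cells, was at 18.8 to 20.6 CPM in homozygous and 6.92 to 6.94 CPM in heterozygous mTEC. Fibroblast markers (3 of 11 called higher and 3 lower) summed to 369 to 437 CPM in homozygous and 333 to 350 CPM in heterozygous mTEC, and endothelial markers (2 of 9 tested higher and 1 lower) to 88.9 to 96.0 and 67.8 to 104 CPM, which overlapped. Markers of NK and innate lymphoid cells summed to 49.0 to 53.0 and 40.3 to 44.7 CPM, with 2 of 3 tested genes lower. The part of such cells, or of ectopic transcription within mTEC, in the cytokine differences was not tested. In bulk libraries, fewer cells of a type and less RNA per cell cannot be told apart.

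**Figure D2:**
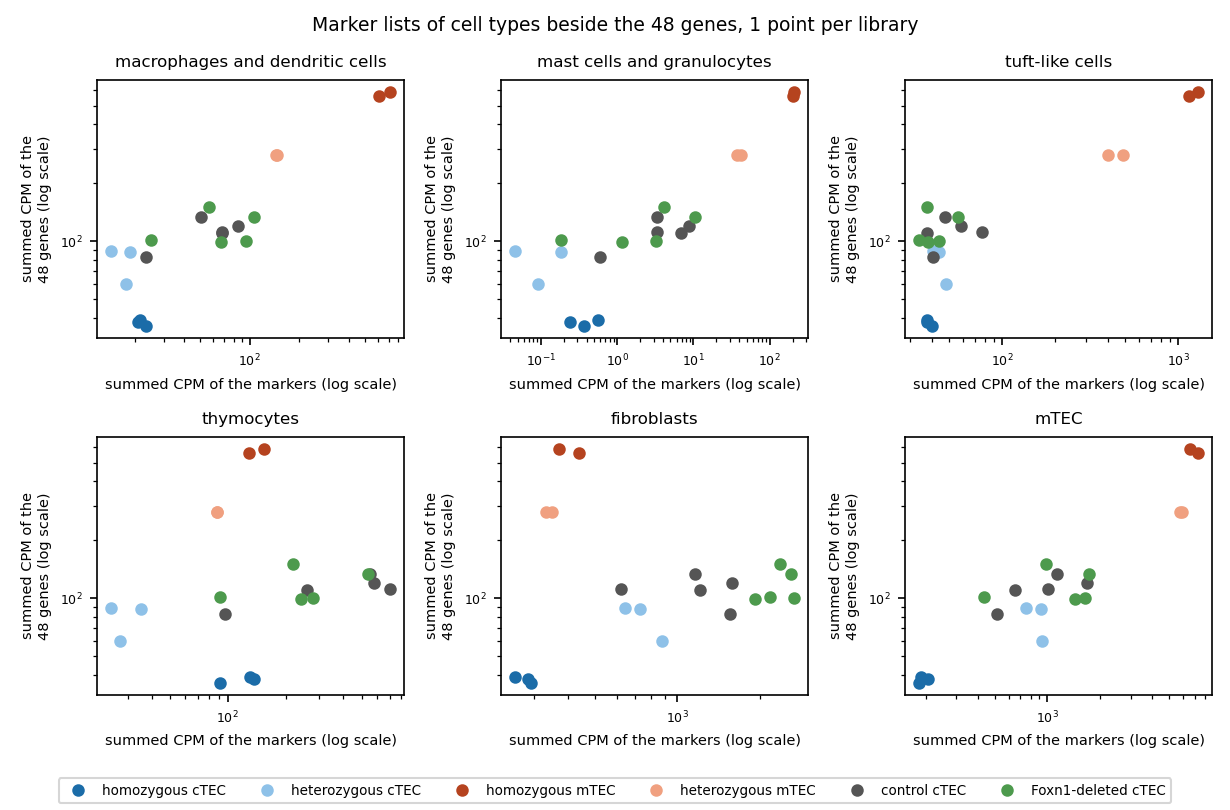
Summed CPM of the 48 genes (vertical, log scale) against the summed CPM of 6 marker lists (horizontal, log scale), with 1 point per library coloured by group. Homozygous mTEC stand highest on both axes for the macrophage and dendritic cell, mast cell and granulocyte, tuft-like and mTEC lists, and heterozygous mTEC come next.

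Each comparison was tested with edgeR's quasi-likelihood test across all genes and adjusted by the Benjamini-Hochberg method, with an adjusted p under 0.05 as the call. Between subsets at the homozygous dose, 42 of the 48 genes were called higher in mTEC and 2 lower, beside 43.2% and 39.4% of all 19222 genes tested. At the heterozygous dose 36 were higher and 3 lower, beside 40.4% and 31.6%, and the same 36 were higher in mTEC at both doses. In 46 genes at the homozygous and 40 at the heterozygous dose, every mTEC library lay above every cTEC library. The share of all genes with such a separation was not counted. Il20, Il17a and Il17f had too few counts to be tested. Only 30 of the 45 tested genes reached 10 counts in 2 libraries when homozygous mTEC were set aside, and 13 did so in cTEC alone. A gene that entered through homozygous mTEC had to differ from cTEC, so these totals describe the subsets and do not serve as support. The genes lower in mTEC were Il17d and Il34 at both doses and Il33 at the heterozygous dose. The heterozygous call of Il17d was lost without the third heterozygous cTEC library (adjusted p = 0.0912), the first heterozygous mTEC library (0.0654) or the second (0.205). Without the first heterozygous mTEC library, the calls of Tnfsf4, Tnfsf11, Il21 and Il6 at that dose were lost as well (adjusted p 0.0648 to 0.17). Without the second, those of Tnfsf4, Il21, Il9, Tnfsf14 and Il17c were lost (0.0585 to 0.201), and that of Il5 was gained (0.0284), as it was without the first homozygous cTEC library (0.0319). The call of Tnfsf4 was lost without any 1 of 7 libraries in all (0.0536 to 0.17). Il4 was gained without the third heterozygous cTEC library (0.0487). At the homozygous dose Il17b was gained without that library (0.0353), and Il2 was no longer tested without the first homozygous mTEC library.

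Between the mTEC doses, 34 of the 48 genes were lower and 2 higher in the heterozygous libraries, beside 30.8% lower and 28.9% higher among all genes tested. In 43 of the 48 genes both heterozygous libraries lay below both homozygous libraries, and in 3 above. The share of all genes separated in this way was not counted, so these numbers are no result about the set. The median log2 fold change was -2.00 over the 45 tested genes and 0.01 over all genes tested, and the same limit of entry through homozygous mTEC applies. Il2, Il3, Il6, Il9, Il19, Il21, Il24, Il31, Il1a, Il17c, Tnfsf4, Tnfsf8, Tnfsf13b, Tnfsf14 and Tnfsf18 reached the test only through homozygous mTEC. Their calls and p-values below are therefore no support for a fall. Il4, Il11, Il18, Il33, Ltb, Tnfsf12, Tnfsf13, Tnfsf15 and Il21r were tested and not called. Of these, Il4, Tnfsf12 and Tnfsf13 passed in 8 of 16 settings each, Il33 in 6, Ltb in 3 and Tnfsf15 in 1, among them fits without single cTEC libraries. In a fit of the mTEC groups alone Il4, Il33, Ltb, Tnfsf12 and Tnfsf13 all passed (0.00381 to 0.0399). Without the second heterozygous cTEC library their adjusted p was 0.0417, 0.000629, 0.0432, 0.0481 and 0.0385. Other settings with the same effect are named with each gene.

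**Figure D3:**
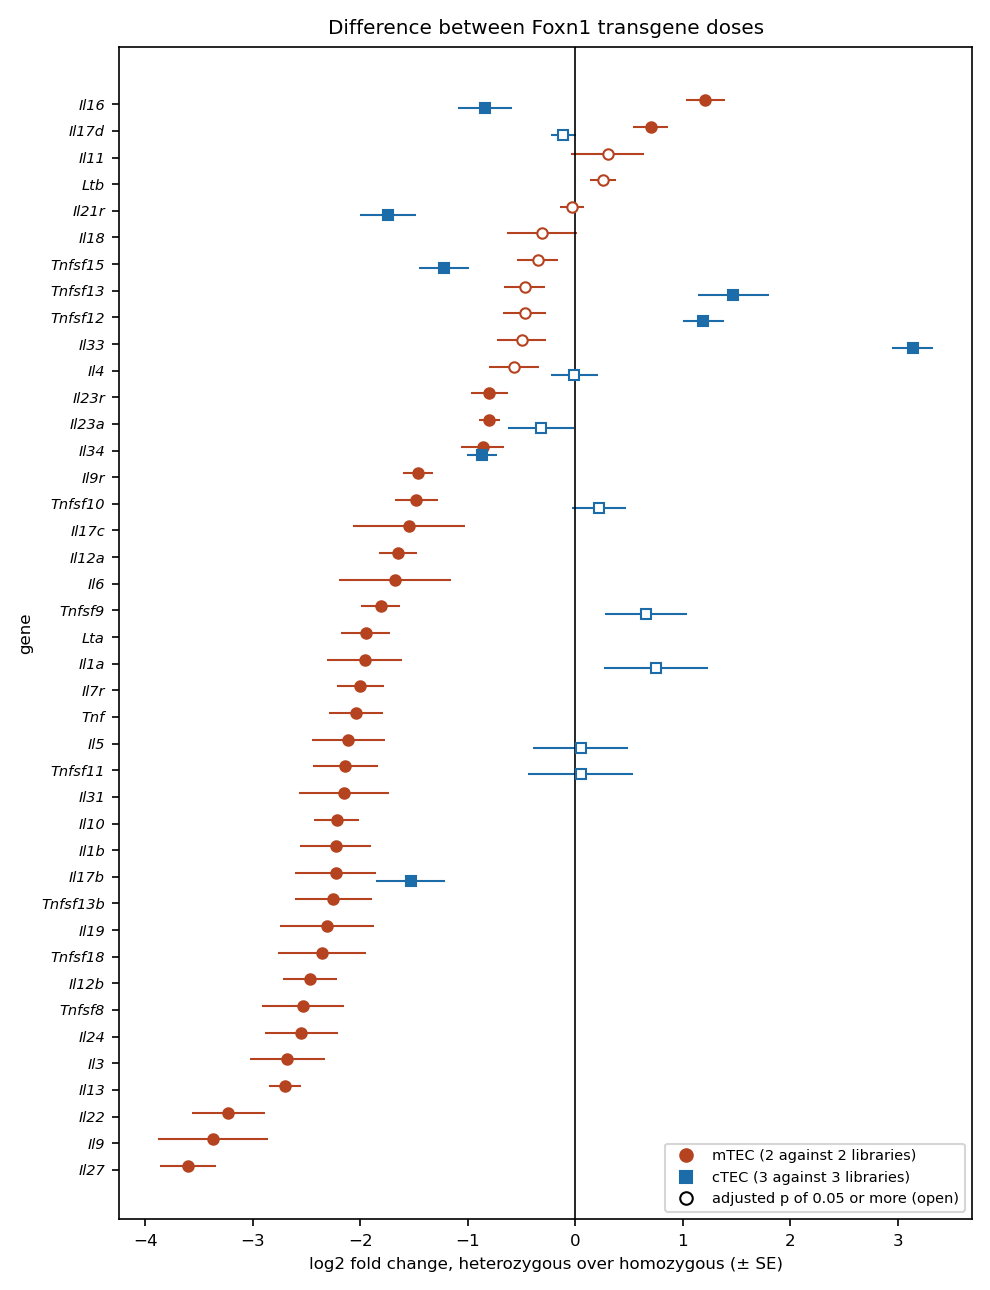
Log2 fold change of heterozygous over homozygous libraries with its SE for the 41 genes with at least 10 counts in each mTEC group (circles), and for the 16 of them that also had so many in each cTEC group (squares), filled where the adjusted p was under 0.05. Most circles lie left of 0, while the squares of Il33, Tnfsf12 and Tnfsf13 lie right of it.

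Within the IL-6 and IL-12 family, 5 of 6 genes were lower in heterozygous mTEC, beside 30.8% of all genes tested. Of these, Il6 reached the test only through homozygous mTEC. Il23a, which encodes the p19 chain of IL-23, was at 103.6 and 95.2 CPM in homozygous mTEC and 56.1 and 56.3 CPM in heterozygous mTEC (log2 fold change -0.80 ± 0.10 SE, adjusted p = 2.12e-05). The groups did not overlap, and cTEC of the transgenic set had 0.363 to 0.795 CPM. Il12b, the shared p40 chain, was at 7.13 and 6.76 CPM against 1.41 and 1.04 CPM (-2.47 ± 0.25, adjusted p = 1.08e-05). Il12a, the p35 chain that completes IL-12, was at 20.8 and 22.9 CPM against 7.02 and 6.65 CPM (-1.65 ± 0.18, adjusted p = 1.94e-05). All 3 chains were thus lower, by different factors. Il27, which encodes the p28 chain of IL-27, was at 10.8 and 9.68 CPM against 0.801 and 0.850 CPM (-3.60 ± 0.26, adjusted p = 9.83e-07). Its partner chain Ebi3, outside the symbol rule, fell from 33.7 and 30.2 CPM to 3.67 and 3.45 CPM in the same contrast (-3.14 ± 0.16, adjusted p = 1.43e-08). RefSeq places Il27 over Apobr, and without strand information their reads cannot be told apart. Il6, the acute-phase cytokine, had 0.602 and 1.11 CPM against 0.330 and 0.189 CPM, and its call (adjusted p = 0.016) was lost without the second heterozygous (0.123) or the second homozygous mTEC library (0.147) and in DESeq2 (0.201). Il11 had 0.556 and 0.880 CPM against 0.942 and 0.802 CPM, overlapping values that were not called. In heterozygous cTEC no library had a count of Il12a, Il12b or Il27, and Il12a was at least 149-fold higher in heterozygous mTEC, counting 3 reads over the cTEC group as the floor.

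Of the neighbours Ltb, Tnf and Lta, the latter pair was called lower in heterozygous mTEC and Ltb was not, and differences between the 3 genes were not tested. Ltb, which encodes lymphotoxin beta, the membrane-anchoring chain of lymphotoxin, was at 37.0 and 34.5 CPM in homozygous mTEC. In heterozygous mTEC it was at 42.3 and 42.0 CPM, with both libraries higher. Its difference was not called (0.26 ± 0.12, adjusted p = 0.079), although it passed without the first heterozygous cTEC library (adjusted p = 0.034) or without the second (0.0432). Tnf, the founding cytokine of the family, was at 8.01 and 10.7 CPM against 1.98 and 2.50 CPM (-2.04 ± 0.25, adjusted p = 1.88e-05). Lta, the soluble lymphotoxin chain, was at 12.5 and 9.95 CPM against 2.83 and 2.88 CPM (-1.95 ± 0.23, adjusted p = 1.35e-05). Tnf and Lta were thus lower without overlap. The cTEC values of the 3 genes were low, at most 0.0927 CPM for Tnf, 0.140 CPM for Lta and 0.499 CPM for Ltb in the transgenic set. Ltb fell in heterozygous cTEC, from 0.421, 0.499 and 0.333 CPM to 0.274, 0.0927 and 0.0459 CPM (-1.69 ± 0.46, adjusted p = 0.00919), which rests on 27 and 9 counts. It entered the fit through mTEC and had too few counts to be tested in the cTEC groups alone. The dose difference of Ltb differed between subsets (interaction 1.95 ± 0.48, adjusted p = 0.00497), a result that rests on the same few cTEC counts. The interaction of Tnf and Lta was not called (adjusted p = 0.103 and 0.815).

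Among the other TNF superfamily ligands, Tnfsf10, which encodes the death ligand TRAIL, was at 69.6 and 73.8 CPM in homozygous mTEC and 24.3 and 26.3 CPM in heterozygous mTEC (-1.48 ± 0.20, adjusted p = 3.88e-05). Tnfsf9, the 4-1BB ligand, was at 10.8 and 11.9 CPM against 2.92 and 3.45 CPM (-1.81 ± 0.18, adjusted p = 4.52e-06). Tnfsf11, which encodes RANK ligand, was at 2.69 and 3.06 CPM against 0.801 and 0.472 CPM (-2.14 ± 0.30, adjusted p = 6.27e-05). RANK ligand reaches mTEC from lymphoid cells, and its receptor gene Tnfrsf11a stood at 208 to 239 CPM in homozygous and 254 to 260 CPM in heterozygous mTEC, slightly higher in the latter (0.23 ± 0.08, adjusted p = 0.0342). Tnfsf4, the OX40 ligand of antigen-presenting cells, was at 4.12 and 3.52 CPM against 0.0942 and 0.0472 CPM. That is 165 against 3 counts, a ratio of 54.0 with a 95% exact counting interval of 18.2 to 265. Costimulatory ligands at lower levels moved the same way. The CD30 ligand gene Tnfsf8 had 2.08 and 1.85 CPM against 0.283 and 0.378 CPM. The GITR ligand gene Tnfsf18 had 1.62 and 1.39 CPM against 0.235 and 0.330 CPM, and the LIGHT gene Tnfsf14 1.71 and 1.67 CPM against 0.0942 and 0.330 CPM. Tnfsf13b, which encodes the B cell survival factor BAFF, had 1.76 and 2.18 CPM against 0.377 and 0.425 CPM. The last 4 had adjusted p of 0.000189, 0.000509, 0.000184 and 0.000185. These 4 and Tnfsf4 reached the test only through homozygous mTEC, where they are high, so the p-values are no support for a fall.

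Tnfsf12, Tnfsf13 and Tnfsf15 were separated by dose in mTEC without a call. Tnfsf12, which encodes TWEAK, was at 4.54 and 4.58 CPM in homozygous and 3.34 and 3.11 CPM in heterozygous mTEC (-0.47 ± 0.20, adjusted p = 0.0528). Tnfsf13, the APRIL gene, was at 6.16 and 6.48 CPM against 4.43 and 4.53 CPM (-0.47 ± 0.19, adjusted p = 0.0507). Tnfsf15, the TL1A gene, was at 4.07 and 4.26 CPM against 3.48 and 2.93 CPM (-0.35 ± 0.19, adjusted p = 0.133). For all 3 the heterozygous libraries lay below the homozygous ones. Tnfsf12 passed without the second or the third heterozygous cTEC library (adjusted p = 0.0481 and 0.0486) and without the second or the third homozygous cTEC library (0.0412 and 0.0489). Tnfsf13 passed without the second or the third heterozygous (0.0385 and 0.0324) or the first homozygous cTEC library (0.0463). With RLE size factors Tnfsf12, Tnfsf13 and Tnfsf15 passed (0.0184, 0.0179 and 0.0486). Tnfsf12 and Tnfsf13 also passed with no filter (0.0375 and 0.0419) and with no normalization factors (0.0436 and 0.0418). Tnfsf12 and Tnfsf13 lie 0.686 kb apart on chromosome 11, and RefSeq annotates the joint transcript Tnfsfm13 and the antisense gene Tnfsf13os over both, so the counts of this pair are uncertain.

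T cell cytokines were lower in heterozygous mTEC in 7 of 8 genes, beside 30.8% of all genes tested. Of the 7, Il2, Il3, Il9, Il21 and Il31 reached the test only through homozygous mTEC, so the count is no result about the family. Il13, which with Il4 and Il5 forms the type 2 cytokine cluster on chromosome 11, was at 57.9 and 50.8 CPM in homozygous mTEC and 8.10 and 8.40 CPM in heterozygous mTEC (-2.70 ± 0.15, adjusted p = 2.85e-08). Il5, the eosinophil growth factor, was at 7.13 and 5.32 CPM against 1.79 and 1.04 CPM (-2.11 ± 0.34, adjusted p = 0.000181). Il4, only 12.7 kb from Il13, was at 4.31 and 4.86 CPM against 2.59 and 3.49 CPM and was not called (-0.57 ± 0.23, adjusted p = 0.0517). Without the third heterozygous cTEC library it passed (adjusted p = 0.0367), as it did without the second (0.0417), without the third homozygous cTEC library (0.0449) and without the second heterozygous mTEC library (0.0461). It also passed with RLE size factors (0.0231), with no normalization factors (0.046) and in a fit of the mTEC groups alone (0.0295). In the 16 cTEC libraries Il4 was at 1.59 to 2.80 CPM, Il5 at 0.225 to 1.12 CPM and Il13 at 0 to 0.869 CPM, and all 3 had counts in each of the 6 groups. Il9, a mast cell growth factor, was at 3.94 and 2.64 CPM against 0.0942 and 0.519 CPM. Il3, the multipotent colony-stimulating factor, was at 2.18 CPM in both homozygous and 0.330 CPM in both heterozygous mTEC libraries. Il21, the follicular helper cytokine, was at 3.06 and 2.22 CPM against 0.0942 and 0.0944 CPM. Il31, known from itch, was at 2.22 and 1.44 CPM against 0.518 and 0.283 CPM. Il2, the T cell growth factor, was at 0.694 and 0.602 CPM against 0 in both heterozygous libraries, at least 9.17-fold lower with 3 counts over the group as the floor. It had too few counts to be tested without the first homozygous mTEC library. Il3, Il9 and Il31 had no count in any transgenic cTEC library, while Il2 and Il21 had 1 count each in that set.

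Of the IL-10 family, 4 of 5 genes were called and all 4 were lower in heterozygous mTEC, beside 30.8% of all genes tested. Of these, Il19 and Il24 reached the test only through homozygous mTEC. Il10, the anti-inflammatory cytokine, was at 26.8 and 21.3 CPM in homozygous mTEC and 6.07 and 4.11 CPM in heterozygous mTEC (-2.22 ± 0.21, adjusted p = 7.93e-06). Its cTEC libraries held 1 count in the homozygous and none in the heterozygous group, so Il10 was at least 111-fold higher in heterozygous mTEC than in heterozygous cTEC. Il22, which acts on epithelia and is known for thymic repair in mice, was at 4.95 and 4.58 CPM against 0.518 and 0.472 CPM (-3.23 ± 0.34, adjusted p = 1.63e-05). Il24 was at 2.96 and 3.01 CPM against 0.424 and 0.566 CPM, and Il19 at 1.34 and 1.81 CPM against 0.424 and 0.189 CPM (adjusted p = 3.67e-05 and 0.00166). Il19, Il20, Il24 and Il10 lie in 1 cluster on chromosome 1 with no other protein-coding gene between them.

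The 2 genes called higher in heterozygous mTEC, Il17d and Il16, were among the IL-17 family and the 2 remaining interleukins, given here with the IL-1 family. Il17d, a member made outside T cells, was at 3.19 and 2.82 CPM in homozygous mTEC and rose to 5.04 and 4.58 CPM in heterozygous mTEC (0.70 ± 0.16, adjusted p = 0.00272). In cTEC it was at 6.26, 6.07 and 5.80 CPM in homozygous and 5.67, 6.16 and 6.61 CPM in heterozygous libraries, which overlapped. Il16, a chemoattractant that binds CD4, rose from 6.99 and 5.28 CPM to 13.4 and 14.4 CPM in heterozygous mTEC (1.21 ± 0.18, adjusted p = 0.000114). Il17b went the other way, from 2.31 and 2.22 CPM to 0.471 and 0.472 CPM (-2.23 ± 0.38, adjusted p = 0.000261). Il34, a ligand of the macrophage receptor CSF1R, was at 6.16 and 5.14 CPM against 3.20 and 2.93 CPM (-0.86 ± 0.20, adjusted p = 0.00279). The inflammatory cytokine genes Il1a and Il1b fell as well. Il1a was at 1.85 and 1.34 CPM against 0.377 and 0.425 CPM (-1.96 ± 0.35, adjusted p = 0.000424). Il1b was at 2.73 and 2.50 CPM against 0.471 and 0.614 CPM (-2.23 ± 0.33, adjusted p = 0.000184). Il18 overlapped between doses, at 2.18 and 1.34 CPM against 1.27 and 1.51 CPM, and RefSeq places it over Bco2 and Tex12. Il17c, an epithelial member, was at 1.67 and 1.02 CPM against 0.377 and 0.519 CPM, and its call (adjusted p = 0.025) was lost without the first homozygous (0.23), the first heterozygous (0.126) or the second heterozygous mTEC library (0.0664). Il17a and Il17f, the T helper 17 cytokines, had 13 and 16 counts over both homozygous libraries and 2 and 6 over both heterozygous ones.

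Of the 4 receptor genes, 3 were lower in heterozygous mTEC, beside 30.8% of all genes tested. Il9r was at 40.1 and 42.3 CPM against 14.3 and 15.1 CPM (-1.46 ± 0.14, adjusted p = 2.98e-06). Il7r, the IL-7 receptor alpha chain of developing lymphocytes, was at 12.5 and 10.4 CPM against 2.54 and 3.07 CPM (-2.00 ± 0.22, adjusted p = 9.95e-06). Il23r was at 32.0 and 29.6 CPM against 18.5 and 16.3 CPM (-0.80 ± 0.17, adjusted p = 0.00157). Ligand and receptor genes were both lower for IL-23 (Il23a, Il23r) and IL-9 (Il9, Il9r). Il21r did not follow Il21, with 34.3 and 35.0 CPM against 33.8 and 33.1 CPM (-0.03 ± 0.11, adjusted p = 0.841). In cTEC Il21r fell from 1.40, 0.816 and 1.05 CPM to 0.365, 0.324 and 0.367 CPM (-1.74 ± 0.26, adjusted p = 0.000127).

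**Figure D4:**
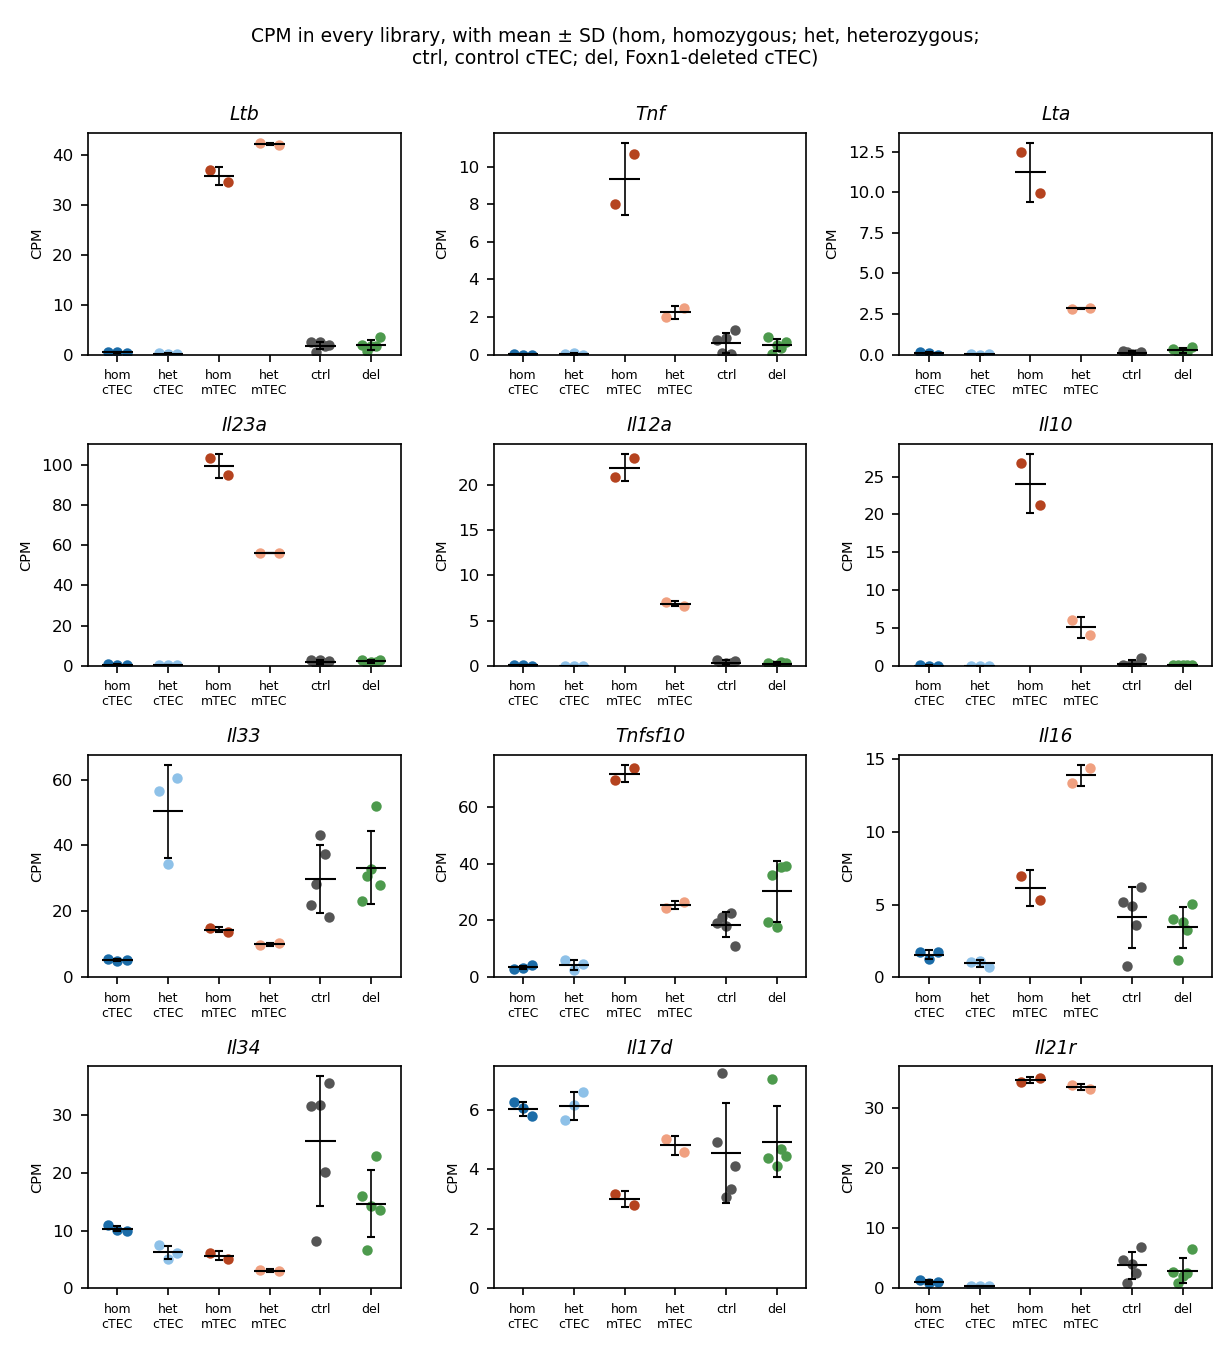
CPM of 12 genes in every library (points) with the group mean and SD (black), each panel on its own linear axis from 0. Ltb and Il21r stay high in heterozygous mTEC, Tnf, Lta, Il12a, Il10 and Tnfsf10 are lower there, and Il33 peaks in heterozygous cTEC.

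Between the cTEC doses, 3 of the 48 genes were higher and 8 lower in the heterozygous libraries, beside 20.9% and 21.9% of all genes tested. The count of 11 of 48 is below that background, and 34 tested genes were not called, many with fewer than 10 counts. Il33, an alarmin of the IL-1 family stored in the nucleus of barrier and stromal cells, was at 5.42, 4.94 and 5.33 CPM in homozygous and 56.4, 34.3 and 60.5 CPM in heterozygous cTEC. The groups were far apart (3.14 ± 0.19, adjusted p = 2.82e-08), and in mTEC the order was the opposite, with 14.9 and 13.8 CPM against 9.70 and 10.3 CPM (-0.50 ± 0.23, adjusted p = 0.0731). The mTEC difference passed without the second (0.000629) or the third heterozygous cTEC library (0.0422), in DESeq2 (0.0191), with RLE size factors (0.0298) and in a fit of the mTEC groups alone (0.00381). Tnfsf12 rose from 1.22, 1.54 and 0.999 CPM to 2.92, 2.92 and 3.58 CPM (1.19 ± 0.19, adjusted p = 0.000235). Tnfsf13 rose from 0.421, 0.227 and 0.238 CPM to 1.01, 1.07 and 0.642 CPM (1.47 ± 0.33, adjusted p = 0.003). The 3 rises were without overlap between doses. Fibroblast markers (11 genes) summed to 256 to 293 CPM in homozygous and 646 to 881 CPM in heterozygous cTEC, and mTEC markers (10 genes) to 183 to 206 and 751 to 932 CPM. Of the fibroblast markers 6 were called higher and 0 lower, whereas the mTEC markers were split, with 5 higher and 4 lower. In library order, the 3 heterozygous cTEC libraries summed to 732, 881 and 646 CPM for the fibroblast markers. For the mTEC markers they summed to 916, 932 and 751 CPM. The part of these cells in the rise was not tested.

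The 8 genes that fell in heterozygous cTEC included Il34, from 10.9, 10.1 and 9.99 CPM to 7.45, 5.10 and 6.06 CPM (-0.87 ± 0.14, adjusted p = 0.000264). Tnfsf15 fell from 1.31, 1.63 and 1.76 CPM to 0.731, 0.834 and 0.642 CPM (-1.22 ± 0.23, adjusted p = 0.000717). Il17b fell from 1.17, 1.45 and 1.52 CPM to 0.777, 0.556 and 0.229 CPM (-1.53 ± 0.32, adjusted p = 0.00177). These 3 did not overlap between doses. Il16 was at 1.73, 1.22 and 1.71 CPM against 1.05, 1.11 and 0.688 CPM (-0.84 ± 0.25, adjusted p = 0.0162), the opposite direction from its rise in mTEC. Its call was lost without the third heterozygous library (adjusted p = 0.0758), the first homozygous (0.0595) or the third homozygous library (0.0573). Il9r, with 21 and 6 counts, was lost without the third library of either group (adjusted p = 0.0509 and 0.0638). Il12a and Il27, with 4 and 3 counts in homozygous and none in heterozygous cTEC, passed only without the third homozygous library (0.0276 and 0.0463). Il13, with 14 and 4 counts, passed at an adjusted p of 0.0358 and was lost without any 1 of 5 of the 6 cTEC libraries (0.0531 to 0.151). Ltb, Il9r and Il13 entered through mTEC and could not be tested in a fit of the cTEC groups alone. Thymocyte markers summed to 90.7 to 137 CPM in homozygous and 24.6 to 35.4 CPM in heterozygous cTEC, with all 18 genes called lower. Their part in the fall of Ltb, Il16, Il9r and Il21r was not tested. Il17b, Il34, Il13 and Il9r were the 4 genes lower in the heterozygous cells of both subsets.

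Whether the dose difference depended on the subset was tested directly by an interaction term. It was called positive for 5 genes and negative for 9 of the 48, beside 25.2% and 17.2% of all genes tested. The negative calls include Il33 (-3.64 ± 0.30, adjusted p = 1.07e-06), Tnfsf12 (-1.66 ± 0.28, adjusted p = 0.000362) and Tnfsf13 (-1.94 ± 0.39, adjusted p = 0.00133), which were higher in heterozygous cTEC. They also include Tnfsf9 (-2.47 ± 0.42, adjusted p = 0.000435) and Tnfsf10 (-1.70 ± 0.32, adjusted p = 0.000787), which fell in mTEC and had overlapping or separate but uncalled values in cTEC. In cTEC Tnfsf9 was at 0.280, 0.227 and 0.285 CPM against 0.411, 0.649 and 0.321 CPM. Tnfsf10 was there at 2.85, 3.22 and 4.09 CPM against 5.94, 2.46 and 4.54 CPM, a difference called only without the second heterozygous library (0.51, adjusted p = 0.0234). Tnfsf11 (-2.19 ± 0.59), Il1a (-2.71 ± 0.61) and Il5 (-2.16 ± 0.56) followed with adjusted p of 0.00921, 0.00287 and 0.0075. Among the genes called here, Tnfsf9, Tnfsf11, Il1a and Ltb entered through mTEC and had too few counts for a fit of the cTEC groups alone. The positive calls were Il16 (2.04 ± 0.31, adjusted p = 0.000179), Il21r (1.71 ± 0.29, adjusted p = 0.00038), Ltb, Il17d (0.81 ± 0.20, adjusted p = 0.00611) and Tnfsf15 (0.86 ± 0.30, adjusted p = 0.0339). The call of Tnfsf15 was lost without any 1 of 7 of the 10 libraries (adjusted p 0.052 to 0.144). Il2 was called as well, but had no count in heterozygous mTEC or homozygous cTEC and 1 in heterozygous cTEC, and without that library its adjusted p was 1.0. Its call was also lost without either heterozygous mTEC library (0.0633 and 0.0629) or the second homozygous mTEC library (0.052). Il17c, with 4 counts in heterozygous and none in homozygous cTEC, passed only without the first or the third heterozygous cTEC library (0.043 and 0.0385).

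At 72 h no gene of the set passed the test between deleted and control cTEC. Of the 48 genes 19 had enough counts, and 0 were called by edgeR, beside 0.282% of all 15224 tested genes called higher and 1.69% lower. DESeq2 called 0 as well, and 3 genes had an unadjusted p under 0.05 in edgeR. A count of 0 among 19 is near that background. Tnfsf10 was at 19.2, 21.0, 18.1, 22.5 and 11.1 CPM in the control and 19.3, 36.0, 17.6, 38.9 and 39.1 CPM in the deleted libraries (0.70 ± 0.25, adjusted p = 0.17). Tnfsf12 was at 8.77, 6.06, 6.49, 6.75 and 5.27 CPM against 9.78, 7.80, 8.23, 9.09 and 11.0 CPM (0.44 ± 0.16, adjusted p = 0.174). Il17b was at 1.65, 1.00, 0.947, 1.31 and 2.77 CPM against 0.969, 0.958, 0.766, 0.689 and 0.965 CPM (-0.85 ± 0.32, adjusted p = 0.19). Each of these 3 overlapped between groups. Within same-numbered pairs, Tnfsf12 and Il18 were higher in the deleted library in 5 of 5 and Il17b and Il7r lower in 5 of 5, and with the number as a block their adjusted p was 0.0825, 0.0751, 0.101 and 0.072, so none was called. Il33 ranged from 18.1 to 43.1 CPM in control and 23.1 to 51.9 CPM in deleted cTEC (0.14 ± 0.26, adjusted p = 0.801), a difference that did not pass the test. Il34, at 8.21 to 35.6 CPM in control and 6.62 to 22.9 CPM in deleted cTEC, was lower on average without a call (-0.84 ± 0.40, adjusted p = 0.284).

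The second library of each deletion group stood apart in transcripts of several other cell types. Thymocyte markers summed to 96.3 CPM in the second control library and 258 to 702 CPM in the other 4, and to 90.7 CPM in the second deleted library and 218 to 541 CPM in the others. In mTEC markers the second control library was at 512 CPM against 655 to 1679 CPM, and the second deleted library at 435 CPM against 987 to 1730 CPM. Endothelial markers were at 7.20 and 7.03 CPM in these 2 libraries and at 16.9 to 39.0 CPM in the other 8. Il16 and Il21r were lowest in the same libraries, whereas Tnfsf10 was lowest in another library of each group and Il17d was highest in these 2. Il16 was at 0.729 CPM in the second control library against 3.58 to 6.21 CPM in the others, and at 1.19 CPM against 3.21 to 5.02 CPM in the deleted group. Il21r was at 0.957 and 0.958 CPM in these 2 libraries and at 2.06 to 6.84 CPM in the other 8. Without the second control library 1 gene was called, Il9r (-1.77, adjusted p = 0.0439), which is at 0 in that library, and without the second deleted library none was. Fibroblast markers summed to 624.7 to 1575.2 CPM in control and 1922 to 2658 CPM in deleted cTEC without overlap, with none of the 11 called. The part of these marker differences in the levels above was not tested.

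Genes around the ligands were read from lists of receptors, inhibitors, processing enzymes and signalling genes. In mTEC, 24 of 39 tested interleukin receptor genes were lower and 3 higher in heterozygous libraries, beside 30.8% lower and 28.9% higher among all genes tested, with Il12rb2 at 29.7 CPM in homozygous and 7.47 CPM in heterozygous mTEC (-1.97 ± 0.15) and the IL-33 receptor gene Il1rl1 at 17.0 and 4.64 CPM (-1.85 ± 0.16). Of 24 tested TNF receptor genes 13 were lower and 2 higher, with the 4-1BB gene Tnfrsf9 at 39.8 and 7.75 CPM (-2.33 ± 0.12). Of 10 tested decoys and inhibitors 7 were lower and none higher. Il1rn, the IL-1 receptor antagonist, was at 142 and 27.1 CPM (-2.37 ± 0.15), and Il18bp, the IL-18 binding protein, at 30.5 and 11.1 CPM (-1.43 ± 0.13). Among 19 tested of 22 cytokines outside the symbol rule 15 were lower, among them Tslp, the epithelial activator of dendritic cells, at 7.87 and 1.18 CPM (-2.71 ± 0.27). The medians were -0.47, -0.25, -1.18 and -1.20 in these 4 lists, against 0.01 over all genes. Of 10 genes for processing and release 5 were lower and 1 higher (median -0.34). Of 31 signalling genes 11 were lower and 4 higher (median -0.11), near the share of all genes called lower. The 3 interleukin receptor genes called higher were Il17rd (1.49 ± 0.19), Il6ra (0.59 ± 0.14) and Il6st (0.45 ± 0.11). The 4 receptor genes above belong to the first list too.

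In cTEC the lists held calls in both directions, beside 20.9% of all genes tested called higher and 21.9% lower in heterozygous cTEC. Among 39 tested interleukin receptor genes 10 were higher and 16 lower, with Il17re higher (3.41 ± 0.22, 4.75 CPM against 0.403 CPM) and Il2ra lower (-1.97 ± 0.19, 1.68 CPM against 6.02 CPM). Of the 24 TNF receptor genes 8 were higher and 7 lower, among the latter Cd40 (-1.97 ± 0.14, 7.68 CPM against 27.5 CPM) and the lymphotoxin receptor gene Ltbr (-0.50 ± 0.05, 164.6 CPM against 212.5 CPM). Of 10 genes for processing and release 4 were lower and 2 higher. Casp1, which cleaves the precursors of IL-1 beta and IL-18, fell from 6.15 to 0.398 CPM (-4.06 ± 0.19) and the pore gene Gsdmd from 89.4 to 33.5 CPM (-1.55 ± 0.07). Of 31 signalling genes 18 were lower and 5 higher. The lists' counts are not far from those shares for several lists, such as the TNF receptors, and no list was tested as a whole. In Foxn1-deleted cTEC 3 genes of all lists were called, beside 0.282% of all genes higher and 1.69% lower. Il20rb, a receptor chain for the IL-20 subfamily, fell from 28.8 ± 12.8 to 7.60 ± 1.37 CPM (SD, n = 5; log2 fold change -1.96 ± 0.31 SE, edgeR adjusted p = 0.014). Flt3l, the dendritic cell growth factor gene, fell from 23.0 to 9.82 CPM (-1.26 ± 0.27, adjusted p = 0.0443), and the TWEAK receptor gene Tnfrsf12a rose from 8.45 to 16.7 CPM (0.96 ± 0.20, adjusted p = 0.0364).

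Il7, Il15 and Il25, which the symbol rule leaves out, differed from most of the 48 genes or followed them. Il7, the thymocyte survival factor, was at 256 to 269 CPM in homozygous and 235 to 275 CPM in heterozygous cTEC (-0.22 ± 0.06, adjusted p = 0.0111) and not called between the mTEC doses (0.17 ± 0.08, adjusted p = 0.0754). Il15 was lower in the heterozygous cells of both subsets (-0.87 ± 0.10 and -0.82 ± 0.11), and Il25, a tuft cell cytokine, in mTEC (-1.20 ± 0.20, adjusted p = 0.00027).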

How the data were processed

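The authors deposited 1 table of raw read counts, whole numbers for 38720 gene symbols. Per the submitters' processing notes, the tools of the series include TopHat2 2.0.10, Bowtie2 2.2.3, Trimmomatic 0.32 and featureCounts and the builds mm10 and GRCm38. The sources used here do not give annotation, strand setting or treatment of shared reads. CPM were computed from raw totals. Tests used edgeR 4.0.16 in R 4.3.3 (quasi-likelihood, TMM, filterByExpr with a minimum count of 10 and total of 15, Benjamini-Hochberg adjustment over all genes, two-sided, call under 0.05). The deletion comparison used its 10 libraries, the transgenic comparisons their 10 in 1 fit with 4 groups. SE is the log2 fold change over the root of its F. For genes with at most 3 counts in a group, folds are bounds against 3 counts over the group, or ratios with 95% exact intervals, which cover counting error only. The genes, lists and the rule for named genes (every gene called, with each library's value, and related-list genes among the 3 smallest adjusted p per direction) were chosen with earlier results of these data known. Marker lists held 1 gene of 16 (macrophages) and 2 of 8 (erythroid) that were not matched in the table. Library numbers in the deletion set appear only in the column names, and the main deletion fit took no account of them. Same-numbered control and deleted libraries deviated together (r = 0.643, 0.765, 0.104, 0.42 and 0.496, against at most 0.303, 0.071, 0.298, 0.145 and 0.066 with another number, so that library 3 did not correlate best with its own), and the fit with the number as a block changed no deletion call. Other settings were DESeq2 1.42.0, other size factors, no filter, leaving out each library, and fits on the compared groups only. The fits were tested on simulated data for genes with more reads, a check that does not reach genes at or near 0 counts in a group. Chromatin samples were not used here.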

Additional observations from a re-analysis of the deposited data

Results flagged for a closer look

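The interaction term was called positive in 25.2% and negative in 17.2% of all genes tested, so the number of calls in the set is no mark of it. For 14 genes the dose difference (heterozygous minus homozygous, log2) differed between mTEC and cTEC by the interaction term. It was more negative in mTEC for Il2 (-8.57), Il33 (-3.64), Il1a (-2.71), Tnfsf9 (-2.47), Tnfsf11 (-2.19), Il5 (-2.16), Tnfsf13 (-1.94), Tnfsf10 (-1.70) and Tnfsf12 (-1.66). It was more positive in mTEC for Il16 (2.04), Ltb (1.95), Il21r (1.71), Tnfsf15 (0.86) and Il17d (0.81). The value of Il2 rests on 1 count in cTEC and none in heterozygous mTEC and is no measure of size. In the deletion set 2 of 38 gene and group pairs had 1 library far above the other 4, where chance gives about 1 in 20. These were Il17d, at 7.03 CPM in the second Foxn1-deleted library (the second control library had 7.25 CPM), and Il7r, at 1.11 CPM in the fifth.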

How the results depend on the processing

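Over all alternatives run, no called log2 fold change of the 48 genes changed sign. Of the single-gene results, 3673 stayed on their side of the threshold, 65 lost the call and 50 gained it. The number of genes called ranged over the fits that leave out 1 library from 0 to 1 for the deletion, 8 to 11 for the cTEC dose, 34 to 41 for the mTEC dose, 43 to 45 and 34 to 40 for the subsets at the homozygous and heterozygous dose, and 12 to 14 for the interaction. With the library number as a replicate block the numbers were 0, 10, 39, 44, 37 and 12, where the mTEC dose gained Il4, Il33 and Tnfsf13 (adjusted p = 0.0231, 0.0358 and 0.0456, edgeR) beside the 36 of the fit without it. In the transgenic set the numbers are only column names, and same-numbered cTEC libraries correlated at 0.147, 0.13 and 0.06. Fits on the compared groups alone called 8 genes for the cTEC dose and 27 for the heterozygous subset comparison, where 13 and 30 genes could be tested. Scaling without normalization factors moved the median of all genes from 0.00 to 0.11 in the cTEC dose and from 0.04 to 0.28 between homozygous subsets (0.54 in DESeq2), and DESeq2 moved it from 0.01 to -0.19 in the mTEC dose, where 35 genes were called. Several calls rest on under 10 counts in the lower group, where the size of a fold is poorly known, and small differences among genes at such counts were not detectable at this depth.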

Other observations

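Chromosome neighbours among the 48 genes had the following dose differences in mTEC. In the type 2 cluster the log2 fold change was -2.70 for Il13, -2.11 for Il5 and -0.57 for Il4. Tnfsf8 and Tnfsf15, 86.1 kb apart on chromosome 4, had -2.53 and -0.35. Tnfsf9 and Tnfsf14, on chromosome 17 with 1 coding gene between them, had -1.81 and -2.93. Il1a and Il1b, 54.4 kb apart, had -1.96 ± 0.35 and -2.23 ± 0.33 (SE). Tnf and Lta had -2.04 and -1.95, and Il10, Il19 and Il24 had -2.22, -2.31 and -2.55. These neighbours were named after their values were seen, and differences between neighbours were not tested.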
